A study of Homo sapiens with 49 samples.

Results

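MYC and the proteins that share its dimer partners form a small family of helix-loop-helix leucine-zipper factors, and 9 of their genes are described here: MYC, MAX, MXD1, MXD3, MXD4, MXI1, MNT, MGA and MLX. They were chosen by name, and a gene was measured by the probe sets whose annotation lists that gene and no other. This gave 23 probe sets for 8 of the 9 genes, out of 19777 genes with such a probe set. MXD4 is listed only on 3 probe sets that also name the microRNA gene MIR4800 and was not analysed here. Where a gene had several probe sets, the one brightest on average over all 49 arrays was used, and the others are given beside it.

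The cells were 6 established lines of diffuse large B-cell lymphoma, a fast-growing cancer of mature B lymphocytes. They were U2932, RIVA, FARAGE, SU-DHL-5, OCI-Ly7 and NU-DHL-1. They were left untreated or exposed to doxorubicin, an anthracycline drug that inserts into DNA and locks topoisomerase II on it, at 0.00061 µg/mL (the low dose) or 2.5 µg/mL (the high dose). Arrays of untreated cells were made at 0, 2 and 12 h in 6 lines and at 48 h in 3 (U2932, OCI-Ly7 and RIVA), as were low-dose cells at 2, 12 and 48 h. High-dose cells were profiled at 2 h in 6 lines, at 12 h in 5 (all but SU-DHL-5) and at 48 h in 2 (U2932 and RIVA). A single array was made for a line at a given dose and time. The line was therefore the replicate, and its untreated array of the same time the control. All cells were cultured in RPMI medium with serum and antibiotics, and repeated cultures of a line are not mentioned.

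MYC binds DNA as a dimer with MAX, at the E-box CACGTG and its variants, and raises transcription of genes for growth, ribosome production and metabolism. The MXD proteins, MXI1, MNT and MGA also need MAX: their dimers occupy the same sites and repress, the MXD proteins, MXI1 and MNT through the SIN3-HDAC corepressor and MGA through a variant polycomb complex. MLX is a parallel partner, which joins the glucose-sensing factors MLXIP and MLXIPL and also some MXD proteins and MNT. In B cells MYC drives the growth of the germinal centre, and its gene is a frequent target of translocation in aggressive B-cell lymphoma.

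The stretch just before the gene start is shown for 4 measured members: MXD1 and MGA, which had the largest rise and fall at 12 h as deposited, and MNT and MLX, whose promoter holds the E-box of the family. The sequences are the 250 bases before the start of each gene, from RefSeq on GRCh38.p14, printed 5′ to 3′ on the strand of the gene, with CACGTG in capitals. MXD1 (chr2:69914859-69915108, plus strand) and MGA (chr15:41620974-41621223, plus strand) hold no CACGTG in this window. MNT (chr17:2401061-2401310, minus strand) holds it 193 bases before its start, and MLX (chr17:42566850-42567099, plus strand) 50 bases before.
MXD1: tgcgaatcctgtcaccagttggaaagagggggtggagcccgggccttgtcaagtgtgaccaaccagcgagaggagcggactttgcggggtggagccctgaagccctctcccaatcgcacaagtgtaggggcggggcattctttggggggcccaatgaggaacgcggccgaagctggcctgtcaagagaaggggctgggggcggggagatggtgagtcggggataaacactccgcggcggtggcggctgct
MGA: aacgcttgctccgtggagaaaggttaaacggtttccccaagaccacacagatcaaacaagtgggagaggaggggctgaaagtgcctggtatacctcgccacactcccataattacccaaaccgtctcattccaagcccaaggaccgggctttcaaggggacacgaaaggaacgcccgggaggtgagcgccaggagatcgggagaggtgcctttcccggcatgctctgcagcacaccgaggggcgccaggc
MNT: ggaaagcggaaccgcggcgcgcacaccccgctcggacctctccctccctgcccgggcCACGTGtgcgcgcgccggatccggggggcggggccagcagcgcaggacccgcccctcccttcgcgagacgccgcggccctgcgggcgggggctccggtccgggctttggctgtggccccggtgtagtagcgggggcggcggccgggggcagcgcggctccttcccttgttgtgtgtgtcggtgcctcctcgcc
MLX: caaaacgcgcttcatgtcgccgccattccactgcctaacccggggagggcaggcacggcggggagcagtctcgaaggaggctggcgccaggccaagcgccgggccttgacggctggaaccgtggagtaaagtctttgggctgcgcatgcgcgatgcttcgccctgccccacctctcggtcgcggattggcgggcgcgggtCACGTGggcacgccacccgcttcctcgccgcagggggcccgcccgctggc
Of the 8 members found in this table (all but MYC), 3 held the motif, which reads the same on both strands: MNT, MLX and MXD4, the last 238 bases before its start. Among all 27305 promoters of this length 6.49% held it, and among the 15382 that belong to measured genes 7.83%. A match is a description of these letters and not a binding site.

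The values are log2 intensities summarised by RMA, a method that quantile-normalizes the arrays, so that a difference of 1 is a 2-fold change relative to the bulk of the genes. The scale is set by each probe set, so that levels are compared between arrays and not between genes. The lines carried the markers of B cells: the mean level of 5 measured genes (MS4A1, CD79A, CD79B, PAX5 and CD22) lay between 10.8 and 11.9 on untreated arrays. The corresponding ranges were 4.66 to 5.61 for 5 T cell genes, 3.80 to 4.42 for 4 myeloid, 4.42 to 5.68 for 5 fibroblast and 4.02 to 5.53 for 5 epithelial genes. Single genes of these lists stood high in some lines. Untreated line means ran from 2.79 to 9.66 for EPCAM (epithelial), 5.12 to 8.89 for CD247 (T cell) and 5.37 to 8.44 for DCN (fibroblast). The array medians of all 54675 probe sets lay between 4.84 and 5.04. An array reads a whole culture, so that fewer cells carrying a transcript and less of it per cell cannot be told apart.

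Untreated lines differed widely in MYC and in MXD1, and far less in MAX. The means of the untreated arrays at 0, 2 and 12 h spanned 3.98 log2 units over the 6 lines for MYC, 3.84 for MXD1, 2.68 for MXI1, 1.55 for MXD3, 1.08 for MGA, 0.75 for MAX, 0.61 for MLX and 0.53 for MNT. The limma F test over lines, with time as a block, called all 8 members (adjusted p from 2.48e-16 to 5.94e-06). It also called 70.5% of all genes, so that a difference between lines is what most genes show.

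For MYC itself, NU-DHL-1 stood highest, at 11.98 ± 0.08 (SD, n = 3 untreated arrays of different times, here and for the other lines). OCI-Ly7 followed at 11.30 ± 0.04, RIVA at 10.94 ± 0.16, FARAGE at 10.58 ± 0.07 and SU-DHL-5 at 10.58 ± 0.03. U2932 was lowest at 8.0 ± 0.40. FARAGE and SU-DHL-5 differed by less than the SD of their arrays, and every other neighbouring pair in this order by more. The step from SU-DHL-5 down to U2932, 2.59, took up most of the range.

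MXD1, which replaces MYC on MAX as cells leave the cycle, also stood highest in NU-DHL-1, at 7.67 ± 0.22. U2932 came next at 7.23 ± 0.06, then SU-DHL-5 at 6.93 ± 0.05, RIVA at 6.73 ± 0.12 and FARAGE at 6.54 ± 0.12. OCI-Ly7 was far below the others at 3.83 ± 0.20, a gap of 2.71 to FARAGE. That level is below the array medians of all probe sets (4.84 to 5.04), so that the signal there was weak. The lines lowest in MXD1 and in MYC were thus different lines, and each neighbouring pair for MXD1 differed by more than the SD of its arrays.

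MXI1, an MXD-type repressor, ran from 10.2 in NU-DHL-1 to 7.55 in U2932, with RIVA at 9.39, SU-DHL-5 at 9.06, OCI-Ly7 at 8.10 and FARAGE at 8.05. RIVA and SU-DHL-5, and OCI-Ly7 and FARAGE, did not differ beyond their SD. The SD of SU-DHL-5 was 0.77, because MXI1 read 8.66 at 0 h, 8.58 at 2 h and 9.95 at 12 h in that line without any drug. MXD3, whose RNA is typical of dividing cells, was highest in OCI-Ly7 (8.54 ± 0.22) and lowest in NU-DHL-1 (6.99 ± 0.12), the reverse of these lines' places for MXD1. RIVA (7.89), SU-DHL-5 (7.66), U2932 (7.60) and FARAGE (7.55) lay between, and SU-DHL-5 and U2932, and U2932 and FARAGE, did not differ beyond the SD.

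MGA was highest in SU-DHL-5 (8.63 ± 0.06) and lowest in U2932 (7.55 ± 0.07). MAX, the shared partner, stayed between 10.13 ± 0.12 in U2932 and 10.89 ± 0.18 in NU-DHL-1, and MLX between 9.42 ± 0.08 in FARAGE and 10.03 ± 0.03 in OCI-Ly7. MNT lay between 8.44 ± 0.09 in FARAGE and 8.97 ± 0.10 in OCI-Ly7. On their brightest probe sets U2932 was thus the lowest line for MYC, MAX, MXI1 and MGA.

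**Figure D1:**
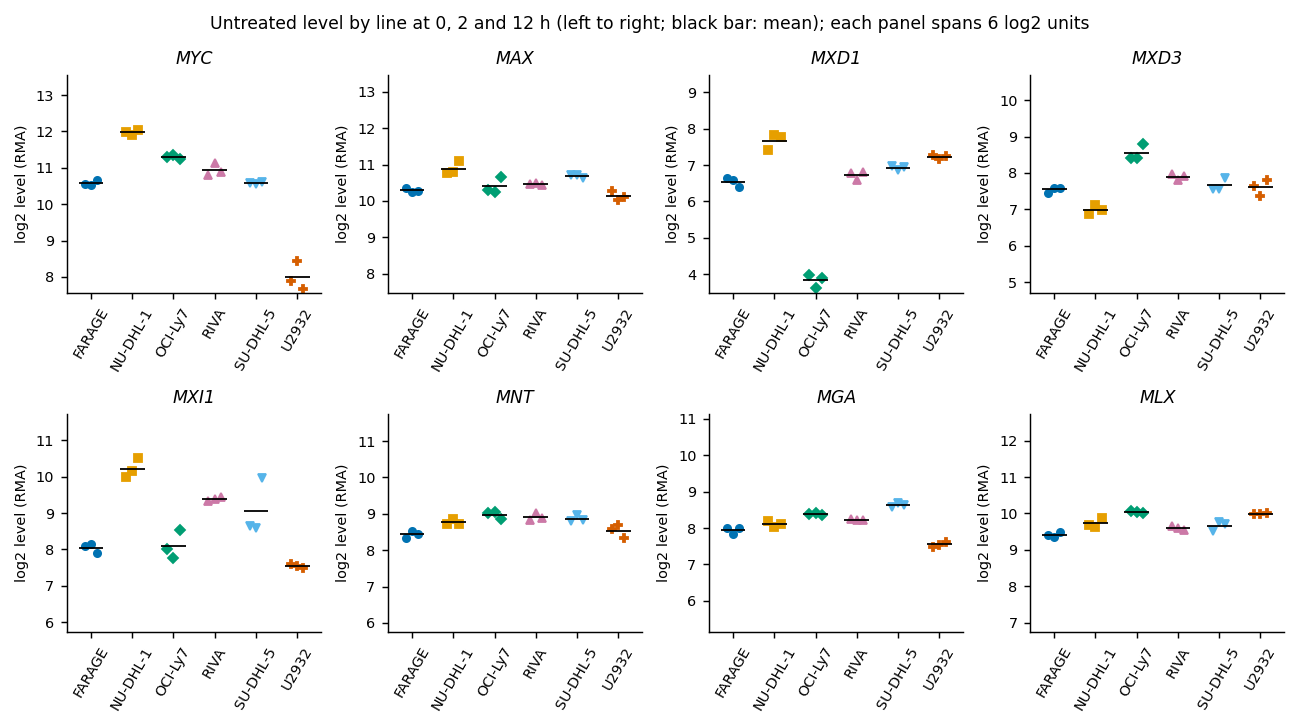
Log2 level (RMA) of each measured member on the untreated arrays, by line; the points of a line are its arrays at 0, 2 and 12 h from left to right, the black bar is their mean, and every panel spans 6 log2 units, so that distances but not levels compare between panels. MYC in U2932 and MXD1 in OCI-Ly7 lie far below the other lines, while MAX, MNT and MLX differ by less than 1 unit.

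Time in culture without the drug moved no member past the threshold. Against 0 h, limma called 0 of 8 members at 2, 12 and 48 h (0.622%, 0.0152% and 0% of all genes; at 2 h 0.172% higher and 0.450% lower), with 1, 2 and 2 members at an unadjusted p below 0.05 (2835, 2048 and 2553 genes of all). At 48 h these were MXI1, with a mean difference of 1.17 ± 0.31 (SE, limma adjusted p = 0.297), and MXD3, with 0.83 ± 0.24 (adjusted p = 0.301), both higher in 3 of 3 lines. MXI1 read 10.83 against 9.34 in RIVA, 9.85 against 8.01 in OCI-Ly7 and 7.77 against 7.60 in U2932. MXI1 passed without U2932 (1.67, adjusted p = 0.0300). In OCI-Ly7 untreated at 48 h MYC stood at 12.24, against 11.29 at 0 h, and MXD1 at 5.15, against 3.98, so that both were above every earlier untreated array of that line.

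The high dose for 2 h lowered MYC and MGA and raised MXD1, MNT and MXD3. These are 3 members higher and 2 lower of 8, where 4.02% of all genes were called higher and 6.37% lower (10.4% in either direction, limma with the line as a block, adjusted p below 0.05). The median difference of the 8 members was -0.01 and that of all genes 0.02. Changes below are means over lines of treated minus untreated log2 values, with the standard error of limma.

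MYC levels ran from 8.45 to 11.90 (median 10.84) on the 6 untreated arrays and from 7.42 to 10.87 (median 10.14) on the 6 high-dose arrays. The groups overlapped, because the lines differ, but within every line the treated array was the lower. The difference was -2.73 in FARAGE (7.80 against 10.53), -1.28 in NU-DHL-1, -1.02 in U2932, -0.71 in RIVA, -0.69 in SU-DHL-5 and -0.47 in OCI-Ly7. The mean was -1.15 ± 0.21 (n = 6 lines, limma adjusted p = 0.00383), and without FARAGE -0.84 (adjusted p = 1.27e-04).

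MXD1 levels ran from 3.61 to 7.82 (median 6.73) on untreated and from 5.46 to 9.01 (median 7.86) on high-dose arrays. Every line rose: by 1.85 in OCI-Ly7, which had started lowest, and by 1.18 in NU-DHL-1, 1.15 in RIVA, 1.11 in FARAGE, 1.11 in SU-DHL-5 and 0.89 in U2932. The mean of 1.22 ± 0.10 had the smallest adjusted p among the members (3.87e-05, limma). A second probe set of MXD1, close to the first in level, rose by 0.63 to 1.68 over the lines, and the last, of low signal, differed by -0.22 to 0.85.

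MNT, the repressor present in most growing cells, rose by 0.49 ± 0.06 (limma adjusted p = 4.37e-04), by 0.20 in U2932 and 0.37 to 0.69 in the other lines. MXD3 rose by 0.34 ± 0.06 (adjusted p = 0.00393), higher in 6 of 6 lines. MGA, the largest protein of the family, fell by 0.58 ± 0.10 (adjusted p = 0.00212), from -0.30 in OCI-Ly7 to -1.14 in U2932. The second MNT probe set differed by 0.057 on average (-0.53 to 0.36 over the lines), and the other MGA probe sets by -0.29, -0.19 and -0.16. The obligate partner MAX differed by -0.02 ± 0.04 (95% interval -0.10 to 0.06), and MXI1 by 0.01 ± 0.05 (-0.10 to 0.12). MLX was lower in 6 of 6 lines (-0.24 to -0.060), with a mean of -0.14 ± 0.04 that missed the threshold (adjusted p = 0.0514).

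The 5 calls at 2 h rest on the pairing within lines: without the line as a block 0 of 8 members, and 0 of all genes, were called, and a joint fit over all arrays called MXD1 alone (adjusted p = 0.0170). With the arrays scaled to the poly-A control probe sets, which stand for RNAs spiked into the sample and place the median gene at -0.28, MNT (0.19, adjusted p = 0.179) and MXD3 (0.04, adjusted p = 0.774) were not called, while MYC, MXD1 and MGA were. On that scale MAX was called lower (-0.32, limma adjusted p = 0.0282) and MLX stood at -0.44. MLX was called lower in 3 of its 14 alternatives and MAX in 1 of 14.

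**Figure D2:**
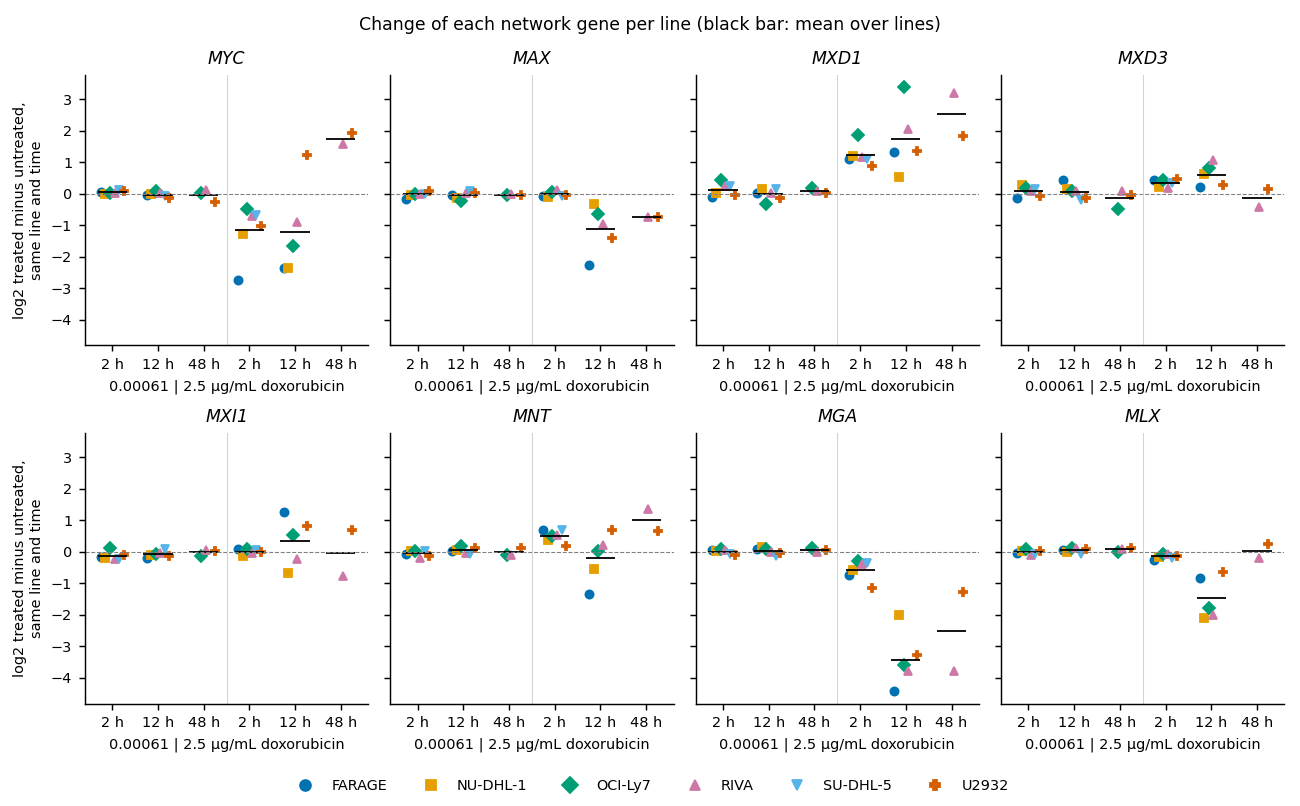
Log2 difference of each member, treated minus untreated at the same time in the same line, for the low dose (left of the grey line) and the high dose (right) at 2, 12 and 48 h; a symbol is a line and the black bar the mean over lines, on the scale as deposited. Low-dose points lie near 0; at the high dose MGA is below 0 and MXD1 above 0 in every line, while MYC turns from -1.02 to 1.21 in U2932 between 2 and 12 h (with the arrays scaled to poly-A controls the mean of MXD1 at 12 h is -0.056 and at 48 h -0.73).

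After 12 h at the high dose MGA, MLX and MAX had fallen and MXD1 was still raised, while MYC no longer moved one way in all lines. Of the 8 members 1 was called higher and 3 lower, against 18.2% and 14.7% of all genes (32.8% in either direction). The median difference of the members was -0.65 and that of all genes 0.20. Of the 5 B cell marker genes 4 were called lower as well (median -0.85), and their mean level ran from 9.79 to 11.4 over all high-dose arrays. Genes called higher were 1 of 5 T cell, 2 of 4 myeloid, 2 of 5 epithelial and 0 of 5 fibroblast markers, whose mean levels over the high-dose arrays stayed within 4.62 to 5.97, 3.94 to 5.33, 4.18 to 5.94 and 4.62 to 5.66. The part of these in the members' values was not tested.

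MGA showed the largest change. Its level was 8.02 untreated and 3.59 treated in FARAGE, 8.10 and 6.09 in NU-DHL-1, 8.35 and 4.76 in OCI-Ly7, 8.21 and 4.43 in RIVA, and 7.63 and 4.35 in U2932. The untreated and treated groups did not overlap. The treated levels in FARAGE, OCI-Ly7, RIVA and U2932 lay below the array medians of all probe sets (4.84 to 5.04), where signal is weak. The mean difference was -3.42 ± 0.33 (n = 5, limma adjusted p = 0.00139), and the call held without any single line. The other MGA probe sets were lower in 5 of 5 lines too, but by less, with differences from -1.75 to -0.96, from -1.35 to -0.78 and, at the lowest signal, from -0.74 to -0.062.

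MLX read 9.50 untreated and 8.66 treated in FARAGE, 9.86 and 7.77 in NU-DHL-1, 10.01 and 8.22 in OCI-Ly7, 9.55 and 7.54 in RIVA, and 10.01 and 9.36 in U2932. All treated arrays were below all untreated ones, and the mean difference was -1.48 ± 0.28 (limma adjusted p = 0.00908). The probe sets of MLX did not move alike: those with means of 8.34 and 8.68 were lower in 5 of 5 lines (-2.60 to -1.59 and -1.90 to -0.50), whereas that with the lowest mean, 5.34, was higher in 5 of 5 (0.045 to 0.93).

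MAX read 10.27 and 8.0 in FARAGE, 11.09 and 10.76 in NU-DHL-1, 10.67 and 10.03 in OCI-Ly7, 10.43 and 9.48 in RIVA, and 10.12 and 8.71 in U2932. It was lower in 5 of 5 lines, although the groups overlapped through NU-DHL-1, and the mean was -1.12 ± 0.29 (limma adjusted p = 0.0234). The call was lost without OCI-Ly7 (adjusted p = 0.0525), RIVA (0.0659) or U2932 (0.0770). The other MAX probe sets were lower in 4 of 5 lines each.

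MXD1 read 6.41 and 7.74 in FARAGE, 7.76 and 8.29 in NU-DHL-1, 3.90 and 7.29 in OCI-Ly7, 6.82 and 8.87 in RIVA, and 7.25 and 8.60 in U2932. OCI-Ly7, the line with the least MXD1 untreated, gained 3.39 from a level below the array medians. It came within the range of the others' untreated arrays. The mean rise was 1.73 ± 0.39 (limma adjusted p = 0.0151) as deposited and 1.07 with the arrays scaled to the hybridization controls (adjusted p = 0.0245), but -0.056 with the poly-A controls (adjusted p = 0.893). The call was also lost without RIVA (1.65, adjusted p = 0.0556). The second MXD1 probe set rose in 5 of 5 lines, by 0.65 to 2.87.

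MYC was lower in 4 lines and higher in U2932. The treated and untreated levels were 8.29 and 10.66 in FARAGE, 9.68 and 12.05 in NU-DHL-1, 9.59 and 11.25 in OCI-Ly7, 10.00 and 10.89 in RIVA, and 8.88 and 7.67 in U2932. The mean of -1.22 ± 0.49 was not called (limma adjusted p = 0.0829). Without U2932, the line with the lowest MYC before treatment, it was -1.82 (adjusted p = 0.0172), and with all 5 lines MYC was called in the joint fit (adjusted p = 0.00230) and with the hybridization controls (-1.87, adjusted p = 2.12e-04).

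The remaining repressors split by line. MNT was lower in FARAGE (-1.33) and NU-DHL-1 (-0.55) and at 0.04 in OCI-Ly7, 0.21 in RIVA and 0.69 in U2932, with a mean of -0.19 ± 0.31 (limma adjusted p = 0.641). MXI1 differed by 1.27 in FARAGE, 0.81 in U2932, 0.52 in OCI-Ly7, -0.23 in RIVA and -0.69 in NU-DHL-1 (mean 0.34 ± 0.31, adjusted p = 0.399). MXD3 was higher in 5 of 5 lines, by 0.20 to 1.08, with a mean of 0.60 ± 0.23 that was not called (adjusted p = 0.0737). Of 13 alternatives 3 called MXD3 higher and 1 reversed it. The 3 were no variance trend (limma adjusted p = 0.0391), the mean of all probe sets (0.0466) and the joint fit (4.98e-04). The signs of MXI1 and MXD3 depend on the scaling: with the hybridization controls MXI1 was -0.32 and MXD3 -0.05, and with the poly-A controls -1.45 and -1.18. MNT was -0.84 with the hybridization controls (limma adjusted p = 0.0620). With the poly-A controls MNT was called lower (-1.97, adjusted p = 3.36e-06).

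**Figure D3:**
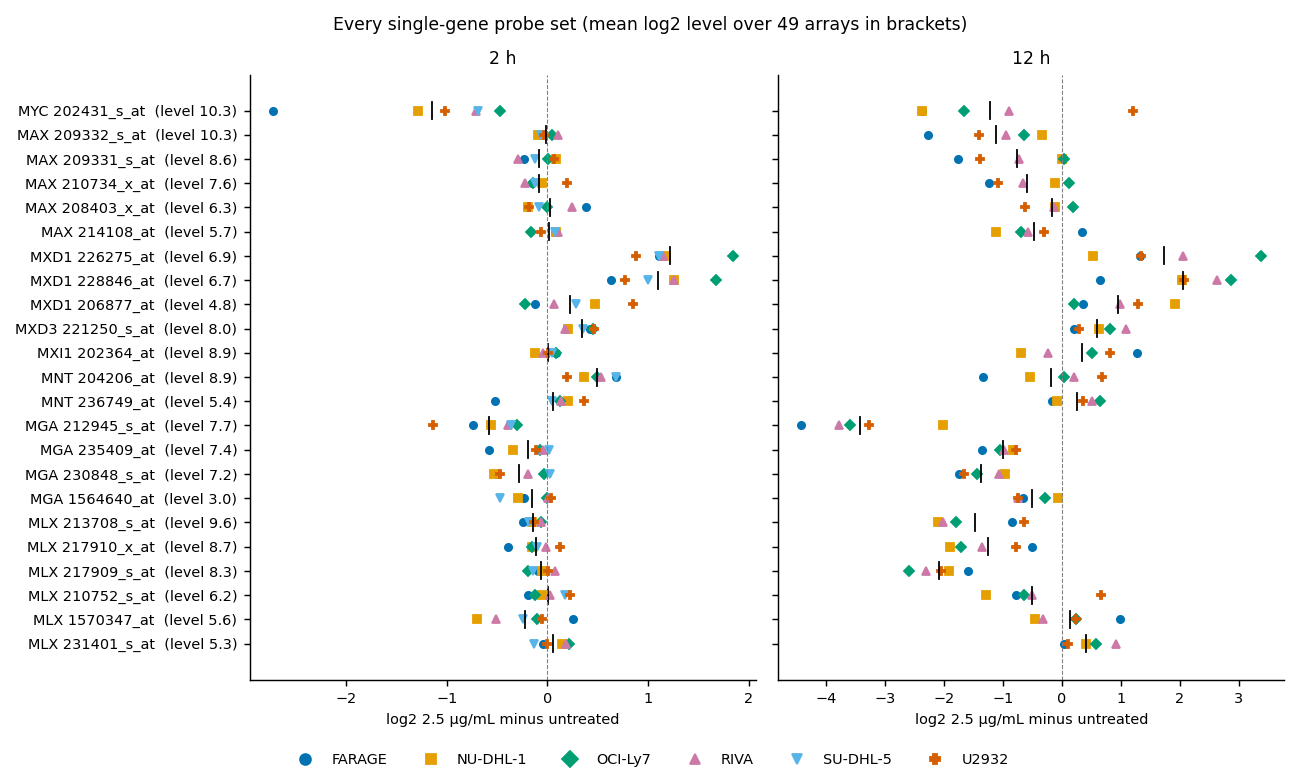
Log2 difference of every single-gene probe set of the members, high dose minus untreated, at 2 h (left) and 12 h (right); a symbol is a line, the black tick the mean over lines, and the mean level over the 49 arrays stands in brackets. At 12 h all MGA probe sets lie below 0 and all MXD1 probe sets above 0 in every line on the scale as deposited (the MXD1 mean is -0.056 with the poly-A controls), while those of MLX lie on both sides.

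The shift between 2 and 12 h was tested on each line's own difference, in the 5 lines with both times. The effect of the high dose on MGA moved by -2.79 ± 0.35 (limma adjusted p = 0.00219), that on MLX by -1.35 ± 0.29 (0.0136) and that on MAX by -1.11 ± 0.27 (0.0230). These were 3 of 8 members called lower, where 12.6% of all genes were called lower and 9.28% higher (21.8% in either direction). For MAX the call was lost without OCI-Ly7, RIVA or U2932 (adjusted p = 0.0541, 0.0778 and 0.0776), and for MLX without OCI-Ly7 or RIVA (0.0582 and 0.0652). For MYC the mean change was 0.03 ± 0.44 (95% interval -0.97 to 1.03) and for MXD1 0.49 ± 0.32 (-0.22 to 1.20), so that neither a further change nor its absence was shown. On the scale of the poly-A controls these were -1.44 and -0.97, both called (limma adjusted p = 6.58e-04 and 0.0218). With the mean of all its probe sets MXD1 was called the other way (0.725, adjusted p = 0.0297).

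After 48 h of the high dose, measured in RIVA and U2932, both lines had more MYC than their untreated cells on the scale as deposited. MYC read 11.98 treated and 10.40 untreated in RIVA, and 9.62 and 7.71 in U2932. In RIVA the treated cells had been lower at 2 h (10.42 against 11.13) and at 12 h (10.00 against 10.89). The mean difference was 1.75 ± 0.48 (n = 2, limma adjusted p = 0.0306). MXD1 stood at 10.42 against 7.23 in RIVA and at 8.91 against 7.08 in U2932, a rise of 2.51 ± 0.57 (adjusted p = 0.0144). MGA stood at 5.00 against 8.77 in RIVA and at 6.26 against 7.53 in U2932, a difference of -2.52 ± 0.61 (adjusted p = 0.0189).

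These are 2 members higher and 1 lower of 8, where 5.66% of all genes were called higher and 8.29% lower (14.0% in either direction). MNT was higher in both lines (1.35 and 0.66, mean 1.01 ± 0.51, limma adjusted p = 0.215) and MAX lower in both (-0.73 and -0.74, adjusted p = 0.318). MLX, which had been low at 12 h, read 9.02 against 9.23 in RIVA and 10.17 against 9.92 in U2932. Its mean of 0.02 was -1.43 with the hybridization controls (adjusted p = 0.241), and its probe sets again differed: that with a mean level of 8.34 was lower in both lines (-2.96 and -1.75) and that with a mean of 5.34 higher in both (0.82 and 1.34). With 1 residual degree of freedom the test leans on variance borrowed from all genes, and without the trend of variance on level no member was called (MYC adjusted p = 0.0618). With the arrays scaled to the hybridization controls MYC differed by 0.29 (adjusted p = 0.810), MXD1 by 1.06 (0.361) and MNT by -0.45 (0.713). With the poly-A controls MYC differed by -1.49, MXD1 by -0.73, MNT by -2.23 and MLX by -3.22, so that at 48 h the fall of MGA is the call that all scalings gave. With the mean of all its probe sets MGA differed by -1.25 at 48 h and was not called (adjusted p = 0.0811).

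**Figure D4:**
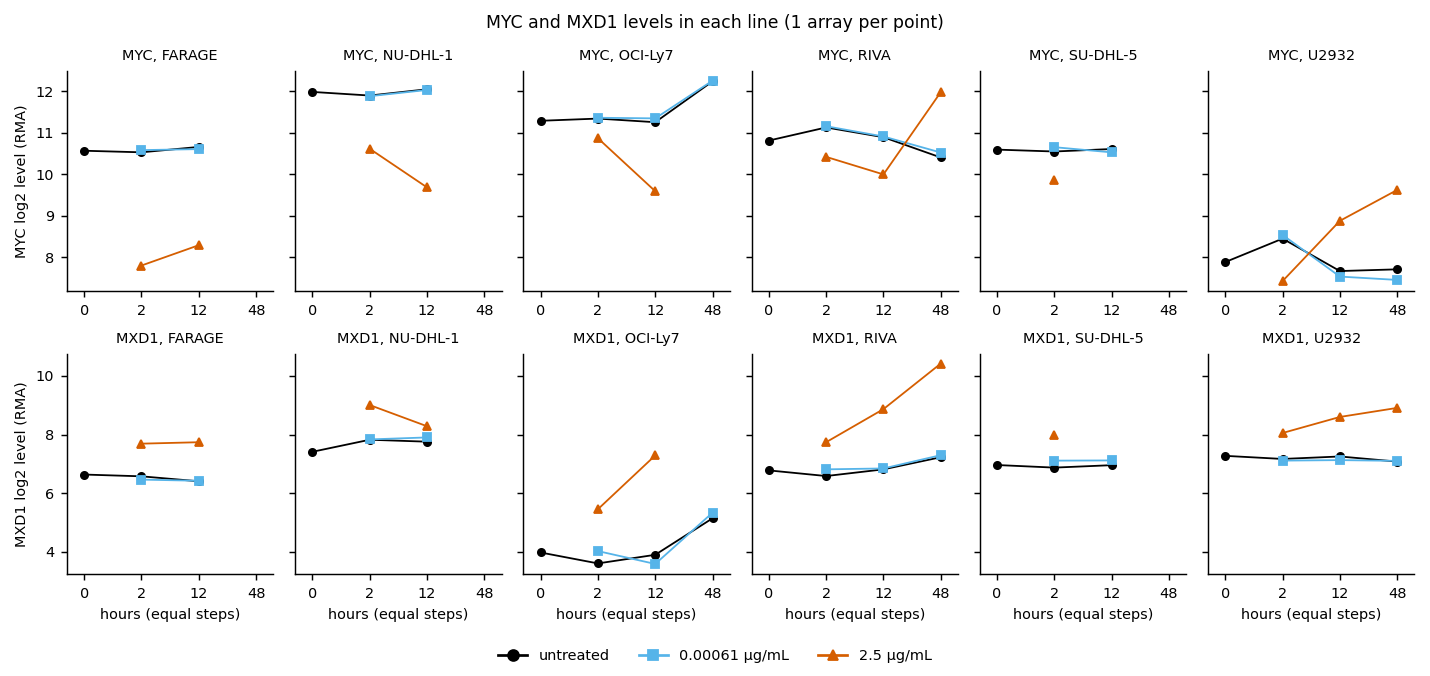
Log2 level (RMA) of MYC (top) and MXD1 (bottom) in each line against hours of culture, in equal steps; black circles are untreated, blue squares low-dose and orange triangles high-dose arrays, 1 array per point, as deposited. The high-dose MYC line lies below the untreated one at 2 h in every line and above it at 48 h in RIVA and U2932 (mean 1.75, but -1.49 with the arrays scaled to poly-A controls); the low-dose line follows the untreated one.

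The scaling matters because the bulk of the genes moved against the control probe sets. The median gene differed by 0.02, 0.20 and 0.17 at 2, 12 and 48 h of the high dose as deposited, by 0.01, -0.46 and -1.28 with the hybridization controls (18 probe sets) and by -0.28, -1.59 and -3.07 with the poly-A controls (24). Whether the poly-A controls were added in equal amounts is not given in the sources used here. Relative to that median the order of the members was the same, since a scaling shifts all genes of an array alike: MXD1 stood highest at each time, with MYC lowest at 2 h and MGA lowest at 12 and 48 h.

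**Figure D5:**
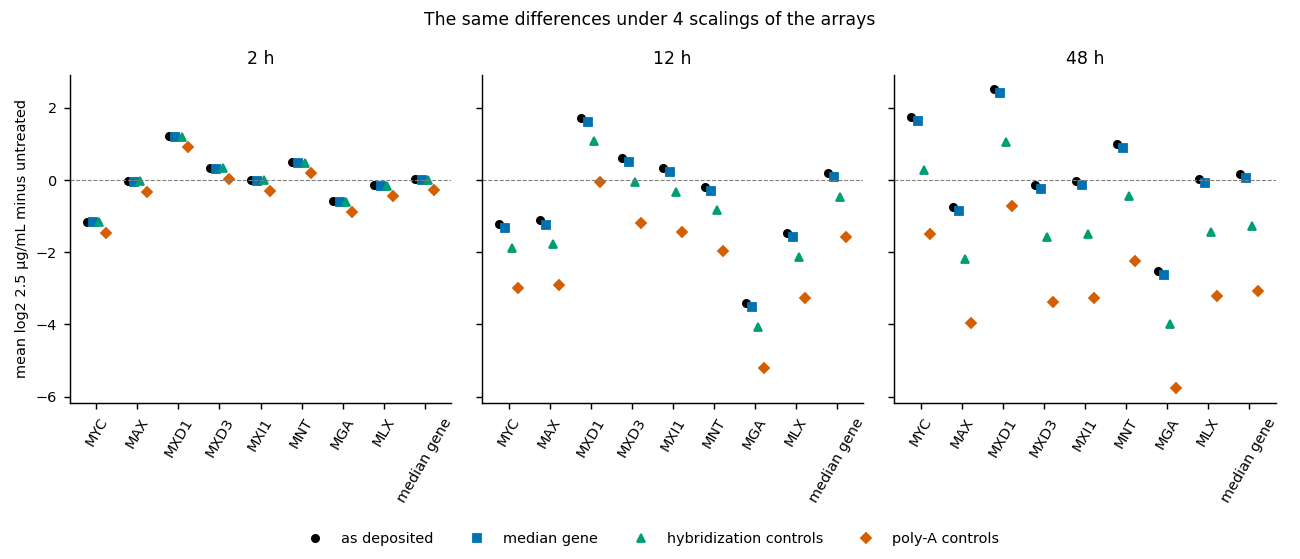
Mean log2 difference of each member and of the median gene, high dose minus untreated, at 2, 12 and 48 h, as deposited, with the arrays centred on the median gene, and scaled to the hybridization or poly-A controls. At 2 h the poly-A controls place MNT at 0.19 and MXD3 at 0.04, against 0.49 and 0.34 as deposited; at 48 h MYC is 1.75 as deposited, 0.29 with the hybridization controls and -1.49 with the poly-A controls, whereas MGA is below 0 under each.

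The low dose left the whole network near its untreated level. Limma called 0 of 8 members at 2, 12 and 48 h, as it called 0% of all genes. At an unadjusted p below 0.05 there were 1, 0 and 0 members, and 809, 1481 and 1465 genes of all. The 1 member was MXI1 at 2 h (-0.13 ± 0.05, unadjusted p = 0.0108), lower in 5 of 6 lines. For MYC the mean difference was 0.05 at 2 h (95% interval -0.01 to 0.10), -0.03 at 12 h (-0.09 to 0.04) and -0.04 at 48 h (-0.17 to 0.09). For MXD1 it was 0.12 (-0.04 to 0.28), -0.01 (-0.17 to 0.14) and 0.10 (-0.11 to 0.30).

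Set directly against the low dose, the high dose gave at 2 h lower MYC (-1.20 ± 0.21, limma adjusted p = 0.00276) and MGA (-0.59 ± 0.09, 0.00114) and higher MXD1 (1.09 ± 0.08, 1.23e-05) and MNT (0.55 ± 0.06, 2.64e-04). These are 2 higher and 2 lower of 8 members, beside 4.22% and 5.99% of all genes (10.2% in either direction). The call was lost for MYC, MGA and MNT in the joint fit and for all 4 without the line as a block. At 12 h MXD1 was higher (1.78 ± 0.43, adjusted p = 0.0196, but -0.18 with the poly-A controls) and MGA (-3.48 ± 0.32), MLX (-1.56 ± 0.28) and MAX (-1.05 ± 0.31, adjusted p = 0.0366) lower. That is 1 of 8 higher and 3 lower, beside 14.8% and 14.3% of all genes (29.1% in either direction). Without RIVA 2 of these calls were left. For MAX the call was lost without FARAGE (limma adjusted p = 0.0699), OCI-Ly7 (0.0608), RIVA (0.0986) or U2932 (0.110). For MXD1 it was lost without RIVA (0.0670) or U2932 (0.0541). Both were also lost without the line as a block (0.146 and 0.114). MYC differed by -1.20 ± 0.50 and was not called (adjusted p = 0.0988). These comparisons share the high-dose arrays with those against untreated cells.

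The balance of antagonist and MYC within a culture can be read as the change of MXD1 minus the change of MYC, which no scaling of the arrays affects. At the high dose for 2 h it was 3.84 in FARAGE, 2.47 in NU-DHL-1, 2.32 in OCI-Ly7, 1.91 in U2932, 1.86 in RIVA and 1.80 in SU-DHL-5. At 12 h it was 5.05 in OCI-Ly7, 3.70 in FARAGE, 2.95 in RIVA, 2.89 in NU-DHL-1 and 0.14 in U2932. At 48 h it was 1.62 in RIVA and -0.08 in U2932, while the low dose for 2 h gave -0.16 to 0.40. The shift towards MXD1 was thus present in 6 of 6 lines at 2 h and, by 12 h, close to 0 in U2932 alone. The same quantity was above 0 in 6 of 6 lines at 2 h for MNT (0.96 to 3.42), MXD3 (0.88 to 3.15) and MXI1 (0.56 to 2.82). At 12 h it was above 0 in 4 of 5 lines for each of them. The exception was U2932, at -0.52 for MNT, -0.93 for MXD3 and -0.4 for MXI1. At 48 h it was above 0 in 0 of 2 lines for each. The means were then -0.74 for MNT, -1.88 for MXD3 and -1.78 for MXI1. The change of MYC enters all of these values. The quantity carries no test of its own.

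Other factors that read the E-box moved singly. At 2 h of the high dose 1 of 12 was called higher and 2 lower, with a median of 0.04 beside 0.02 for all genes. The lists here and below are read against 4.02% of all genes called higher and 6.37% lower at 2 h, and 18.2% and 14.7% at 12 h. The repressor BHLHE40 fell by 1.26 ± 0.17 (limma adjusted p = 6.63e-04) and the lysosomal regulator TFEB fell by 0.23 ± 0.06 (0.0232). MYCL, a paralogue of MYC, rose by 0.64 ± 0.15 (adjusted p = 0.0131). At 12 h 3 were higher and 1 lower (median 0.25 beside 0.20). MYCL then differed by 2.23 ± 0.39 (adjusted p = 0.00672), higher in 5 of 5 lines, and TFEB by -0.92 ± 0.26 (0.0308). Untreated MYCL at 12 h averaged 4.93 over 6 lines, below the median gene (5.83), so that its rise started from low signal.

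Among the MLX partners and targets, 0 of 4 were called at 2 h (limma; 1 at an unadjusted p below 0.05) and 2 of 4 were higher at 12 h (median 0.66). MLXIPL, the glucose-responsive partner of MLX, rose by 0.80 ± 0.22 (adjusted p = 0.0267). Its untreated level at 12 h averaged 5.50 over 6 lines, below the median gene (5.83), and it is also counted among the other E-box factors above. TXNIP, a brake on glucose uptake and the best-known target of these dimers, rose by 1.03 ± 0.32 (0.0407), higher in 4 of 5 lines. MLX itself had fallen on its brightest probe set.

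Of the genes of the corepressor and of the complex that holds MGA, some were called lower and none higher at 12 h. Of 17 SIN3-HDAC genes 2 were higher and 2 lower at 2 h (median 0.01), and 0 higher and 3 lower at 12 h (median -0.01), where 18.2% of all genes were called higher and 14.7% lower, so that the 3 lie near the share in all genes. ING2 rose by 0.52 ± 0.07 at 2 h (limma adjusted p = 5.27e-04), whereas ARID4B fell by 0.77 ± 0.12 and SIN3A, the scaffold, fell by 0.32 ± 0.06. At 12 h SAP30 differed by -1.75 ± 0.46 (adjusted p = 0.0254), SINHCAF by -1.12 ± 0.32 (0.0315) and SUDS3 by -0.94 ± 0.25 (0.0250). Of 12 genes of the polycomb complex that holds MGA 0 were higher and 2 lower at 2 h (median -0.03), and 0 higher and 6 lower at 12 h (median -0.55). The methyltransferase EHMT1 differed by -0.38 ± 0.05 at 2 h and by -2.09 ± 0.23 at 12 h (adjusted p = 0.00181). PCGF6, which gives this complex its identity, fell by 0.30 ± 0.07 at 2 h, and at 12 h CBX3 fell by 0.74 ± 0.13 and WDR5 fell by 1.15 ± 0.27.

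Among cofactors of MYC and enzymes that act on the MYC protein, genes called at 12 h were lower, where all genes had 18.2% called higher and 14.7% lower (4.02% and 6.37% at 2 h). Of 19 coactivators 2 were higher and 4 lower at 2 h (median 0.04), and 0 higher and 9 lower at 12 h (median -0.47). TRRAP, the scaffold of histone acetyltransferase complexes that MYC recruits, differed by -0.20 ± 0.04 at 2 h and by -1.38 ± 0.19 at 12 h (limma adjusted p = 0.00329). CREBBP differed by -0.33 ± 0.06 and BPTF by -0.18 ± 0.04 at 2 h, and CDC73 by -2.17 ± 0.26 and KAT5 by -1.53 ± 0.30 at 12 h. Of 18 genes of MYC protein turnover 0 were higher and 3 lower at 2 h (median -0.04), and 0 higher and 5 lower at 12 h (median -0.36). FBXW7, the ubiquitin ligase subunit that marks MYC for destruction, fell by 0.56 ± 0.07 at 2 h (adjusted p = 2.24e-04). GSK3B, the kinase that primes MYC for FBXW7, differed by -0.31 ± 0.05 at 2 h and -1.91 ± 0.38 at 12 h, USP7 by -0.16 ± 0.04 and -1.75 ± 0.33, and PLK1 by -1.46 ± 0.21 at 12 h.

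Genes known as MYC targets were called in both directions at 2 h, when MYC RNA had already fallen. Of 35 MYC-activated genes 3 were called higher and 4 lower (median 0.03), where 4.02% and 6.37% of all genes were, among them NOLC1 at 0.21 ± 0.03 and ODC1 at 0.09 ± 0.02, both higher in 6 of 6 lines, and POLR1B at -0.28 ± 0.07 (limma adjusted p = 0.0239). Of 12 MYC-repressed genes 1 was higher and 0 lower (median 0.11): NDRG1, a stress-induced gene that MYC represses, rose by 0.41 ± 0.09 (adjusted p = 0.0106). At 12 h 2 of the activated genes were higher and 11 lower (median -0.22), and 7 of the repressed genes were higher and 0 lower (median 0.70), beside 18.2% higher and 14.7% lower and a median of 0.20 for all genes. POLR1B, a subunit of RNA polymerase I, differed by -2.42 ± 0.23 (adjusted p = 0.00135), the ribosome assembly factor RRS1 by -1.63 ± 0.20 and lactate dehydrogenase LDHA by -1.05 ± 0.14. The cell-cycle inhibitor CDKN1C rose by 0.78 ± 0.14, GAS1 by 0.73 ± 0.15 and NDRG1 by 1.73 ± 0.40 (adjusted p = 0.0170). Their untreated levels at 12 h averaged 4.38, 4.45 and 5.43 over 6 lines. That of the median gene was 5.83, so that these rises started from low signal.

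At 48 h MYC was above its control in both lines as deposited, with a mean of 1.75. That mean was 0.29 with the hybridization controls and -1.49 with the poly-A controls. As deposited, 1 activated gene was called higher and 4 lower (median -0.50), and 3 repressed genes were higher and 0 lower (median 1.04). Beside these stood 5.66% higher and 8.29% lower and a median of 0.17 for all genes. In untreated cells of 3 lines the activated genes had a median of -0.59 between 0 and 48 h, with 0 of 35 called by limma, as were 0% of all genes. At an unadjusted p below 0.05 there were 24, and the count over all genes is given above for untreated cells at 48 h. On the scale of the poly-A controls the median of all genes at 12 h was -1.59, so that the rises in these lists are rises relative to the bulk of the genes.

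The genes most like MYC and MXD1 were sought over all 28 treated minus untreated pairs, 13 of them at the high dose, among 9887 genes above the median level. For MYC they were TWNK, the mitochondrial DNA helicase (Pearson r = 0.830), PSMB8-AS1 (0.817), DZANK1 (0.806) and CHRNB1 (0.805). For MXD1 they were CRYGS and RAB22A (both 0.895), BORCS7 (0.889) and PSMB4 (0.887). The pairs share lines and untreated arrays are used for both doses, and the low-dose pairs cluster near 0, so that these correlations describe the high-dose pairs and carry no test.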

How the data were processed

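The deposited values of the 49 Affymetrix arrays are log2 intensities, which the authors computed by RMA with affy in R 3.0.2, per the submitters' processing notes. RMA corrects the background, quantile-normalizes the arrays and summarises the probes of a set. The deposited values ran from 1.71 to 14.8, and 0 columns were left unmatched to a sample. Per the labels' protocols, cRNA was made from total RNA with a 3' in vitro transcription kit, so that probe sets near the 3' end are read best. Of 54675 probe sets 41097 listed 1 gene in the platform annotation, 1801 several and 11777 none. A gene was read from its single-gene probe set with the highest mean over all arrays, which gave 19777 genes. RefSeq symbols were taken through the gene identifier. Arrays give no read depth, and precision is limited by how many there are.

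Treated and untreated arrays of the same line and time were compared with limma 3.58.1 in R 4.3.3 (lmFit, and eBayes with a variance trend), with the cell line named in the labels as the block. P-values were adjusted by Benjamini-Hochberg over 19777 genes, and called means an adjusted p below 0.05. The fits were tested on simulated data. A p of a dose or time comparison measures the spread of the differences between lines, not between repeated cultures. In the F test over lines the differences between lines are set against the spread of a line's untreated arrays at 0, 2 and 12 h. Genes of the lists were named by the 3 smallest adjusted p-values at 2 and 12 h, and 4 like genes were named for MYC and for MXD1 by Pearson r. The members and the lists were chosen with earlier results of these data known. Alternatives were 3 other scalings of the arrays, no variance trend, genes above the median level alone (5.83), the mean of all probe sets, no replicate block, a joint fit of all arrays, and leaving out each line in turn. No array was left out of the main comparisons except where a line lacked its partner.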

Additional observations from a re-analysis of the deposited data

Results flagged for a closer look

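In groups of 5 or 6 lines, a line was singled out where its gap to the nearest other line was large against the whole range (Dixon's criterion). Of 32 such groups of members' differences 3 held a line that stood apart, where chance gives about 1 in 20. MYC at the high dose for 2 h differed by -2.73 in FARAGE, with the nearest line at -1.28. MXD1 in the same comparison differed by 1.85 in OCI-Ly7, with the nearest line at 1.18, and OCI-Ly7 was also the line with the lowest MXD1 level untreated. MXI1 at the low dose for 2 h differed by 0.13 in OCI-Ly7, where the other lines lay at -0.10 or below.

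The high-dose effect differed between 2 and 12 h, by limma's test of the difference itself over 5 lines, for 3 members. The change was -1.11 for MAX, -2.79 for MGA and -1.35 for MLX, each lower in 5 of 5 lines. The call for MAX rests on OCI-Ly7, RIVA and U2932, and that for MLX on OCI-Ly7 and RIVA.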

How the results depend on the processing

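Over all alternatives the members' own values gained a call in 46 cases and lost one in 48, and in 15, all with the poly-A controls, a value called with at least 1 of the settings changed sign. In the other 1195 neither happened. A value called with neither setting changed sign in 100 of the 1208 values that have a direction: 39 with a line left out, 19 with the hybridization controls, 18 with the poly-A controls, 14 with the mean of all probe sets, 9 with the median gene and 1 in the joint fit. The largest of these was MNT at 48 h, 1.01 as deposited and -0.45 with the hybridization controls. The counts of members called stayed within 1.5 times the main count in 139 cases, rose beyond it in 11 and fell below it in 13. Leaving out each line in turn gave 5 calls each time at the high dose for 2 h, 2 to 4 at 12 h, 4 to 5 and 2 to 4 against the low dose at 2 and 12 h, 1 to 3 for the change from 2 to 12 h, 0 to 1 for untreated cells at 48 h (MXI1, without U2932) and 8 each time for the baseline. The fewest at 12 h came without RIVA. At the high dose for 48 h, with 2 lines, no line could be left out.

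The pairing comes from the cell line, of which each group holds 1 array. Without the replicate block, limma called 0 members at the high dose for 2 h and 0 at 48 h, 2 at 12 h, and 0 and 2 against the low dose at 2 and 12 h. The joint fit of all arrays, which shares 1 spread over all times, called 1 at 2 h against untreated and 1 against the low dose, 5 at 48 h, and 2 for untreated cells at 48 h (MXD3 and MXI1). Without the variance trend 0 were called at 48 h. The hybridization controls left 1 call at 48 h, MGA. The shares of all genes called under these settings are not given beside the counts, which are not read as a result about the members.

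With the poly-A controls the members called numbered 7 at the high dose for 12 h and 6 for 48 h, 4 at the low dose for 12 h, 7 against the low dose at 12 h, 8 for the change from 2 to 12 h, and 2, 2 and 4 for untreated cells at 2, 12 and 48 h. The share of all genes called with this scaling is not given here, so these counts are not read as a result about the members. The values that turned were, at the high dose for 12 h, MXD1 -0.056, MXD3 -1.18 and MXI1 -1.45; for 48 h, MLX -3.22, MNT -2.23, MXD1 -0.73 and MYC -1.49; against the low dose, MAX -0.31 at 2 h and MXD1 -0.18, MXD3 -1.48 and MXI1 -1.52 at 12 h; and for the change from 2 to 12 h, MXD1 -0.97, MXD3 -1.21, MXI1 -1.13 and MYC -1.44. This scaling lowers all genes of the high-dose arrays alike, by the shift of the median gene. Among all genes, the share called higher of those called at the high dose for 12 h was 55.3% as deposited, 35.3% centred on the median gene, 2.92% with the hybridization and 0.167% with the poly-A controls; for 2 h it was 38.7%, 26.7%, 26.4% and 0.684%.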
